A study of Mus musculus with 16 samples.

Results

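The transcripts of 10 genes of transforming growth factor beta (TGF-β) and activin signalling were examined in mouse macrophages differentiated in culture from bone marrow (bone marrow-derived macrophages, BMDMs). The genes were chosen by name and not by a threshold on measured values, but with earlier results of these data known. They are the ligand genes Tgfb1 and Inhba, the receptor genes Tgfbr1 and Tgfbr2, the signal transducer Smad3 and the inhibitory SMAD genes Smad6 and Smad7. The co-repressor genes Ski and Skil and the TGF-β-induced gene Tgfbi complete the set. These genes are 10 of the 55487 genes counted. Each was among the 12372 genes that were tested, which exceeded 1 CPM in at least 2 samples. CPM is the count put on a common library size. The filter used CPM on total counts alone, and the CPM given elsewhere were scaled by the relative log expression method (RLE). Inhba and Smad6 were below 1 RLE-scaled CPM in each of the 5 samples without tumor medium. On total counts, Inhba passed 1 CPM in DMEM replicate 2 but in no other of these samples. Both genes thus passed this filter through the samples with tumor medium.

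RNA of 16 samples of wild-type (WT) Balb/c BMDMs was sequenced, with an age of 8 weeks in the labels of every group. Macrophages were given conditioned media (CM) of 4T1 cells, a mouse mammary tumor cell line, alone (CM, 3 samples), with the JAK1/JAK2 inhibitor ruxolitinib at 0.5 μM (CM + Rux, 3 samples) or with ruxolitinib at that dose plus IKK-16 at 0.8 μM (CM + Rux + IKK-16, 3 samples). IKK-16 blocks the kinases upstream of NF-κB. Controls without CM, called DMEM after the culture medium, were untreated (2 samples) or carried ruxolitinib (DMEM + Rux, 3 samples) at a dose and time that the labels and methods do not give. The methods describe treatment for 4 h before RNA isolation, and the titles of CM + Rux carry 4 h. A further 2 samples of CM + Rux are titled 2 h (CM + Rux 2 h), and what this time refers to is not stated. Ruxolitinib was added at pre-treatment, in serum-starved cells, and CM holds every soluble factor the tumor cells release, so no single ligand was applied.

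TGF-β and activins are secreted dimers that bind a type II receptor, which then activates a type I receptor, and the type I receptor phosphorylates the receptor-regulated SMADs that enter the nucleus with the common SMAD. The inhibitory SMADs and the SKI-family co-repressors restrain this signal and are commonly induced by it, which makes them feedback regulators. In macrophages TGF-β is known for restraining inflammatory programmes, and activin A, the dimer that the Inhba product forms, is secreted by activated macrophages.

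Between 18449388 and 46215853 fragments were counted per sample. Each of the 8 macrophage markers examined, among them Adgre1 and Csf1r, was above 1 CPM on average in every group, and their summed level was 40148 to 57183 CPM per sample. Markers of the epithelial 4T1 cells summed to at most 1.45 CPM, with Krt14 and Krt5 at 0 in every sample. The 6 fibroblast markers summed to at most 33.9 CPM per sample, with 3 above 1 CPM on average in every group, led by Pdgfrb (8.50 to 22.7 CPM), while Pdgfra stayed at or below 0.570 CPM. The 5 megakaryocyte and platelet markers summed to 5.26 to 9.98 CPM in the samples without CM, to 26.5 to 89.3 CPM in CM, CM + Rux and CM + Rux + IKK-16 and to 14.5 to 19.4 CPM in CM + Rux 2 h. That sum was led by Pf4, the chemokine of platelet granules, which reached 83.8 CPM, while Gp9 and Gp1ba stayed at or below 0.0591 CPM. The 3 endothelial markers, led by Kdr, summed to 3.73 to 7.36 CPM in CM and CM + Rux and to 11.5 to 24.0 CPM in the other groups. The part of these genes in the results was not tested. In RNA of whole cultures, fewer cells of a type and less RNA per cell cannot be told apart. The methods state that experiments were repeated, but neither they nor the labels tie the samples of a group to separate animals or cultures. The p-values measure the spread between these samples, which may be technical.

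The rise in CM of a ligand of each branch (Inhba and Tgfb1), an inhibitory SMAD (Smad6) and a target gene (Tgfbi) guided the choice of promoters. The proximal promoters of these 4 members are shown. They are RefSeq sequences of the GRCm38.p6 build on the strand of the gene, 5′ to 3′, ending just before the annotated start. Inhba lies at chr13:16011851-16031621 on the plus strand, and its upstream window is chr13:16011601-16011850. Smad6 lies at chr9:63953076-64022059 on the minus strand, with the window chr9:64022060-64022309. Tgfb1 lies at chr7:25687002-25705077 on the plus strand, with the window chr7:25686752-25687001. Tgfbi lies at chr13:56609523-56639562 on the plus strand, and the 187 bases shown, chr13:56609336-56609522, stop where the Ensembl gene begins. Capitals mark a match to the NF-κB consensus in Tgfb1, 140 bases before the start, and to the SMAD GC-rich box GGCGCC in Tgfbi, 77 bases before the RefSeq start.
Inhba: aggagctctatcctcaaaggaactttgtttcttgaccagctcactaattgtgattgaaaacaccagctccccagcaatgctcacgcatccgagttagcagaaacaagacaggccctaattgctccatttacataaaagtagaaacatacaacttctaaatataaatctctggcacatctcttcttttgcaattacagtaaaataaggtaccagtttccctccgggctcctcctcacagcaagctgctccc
Smad6: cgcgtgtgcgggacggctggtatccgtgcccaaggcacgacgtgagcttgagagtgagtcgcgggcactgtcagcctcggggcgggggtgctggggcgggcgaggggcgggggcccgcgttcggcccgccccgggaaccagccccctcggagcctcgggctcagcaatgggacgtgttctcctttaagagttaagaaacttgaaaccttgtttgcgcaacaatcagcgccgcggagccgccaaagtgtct
Tgfb1: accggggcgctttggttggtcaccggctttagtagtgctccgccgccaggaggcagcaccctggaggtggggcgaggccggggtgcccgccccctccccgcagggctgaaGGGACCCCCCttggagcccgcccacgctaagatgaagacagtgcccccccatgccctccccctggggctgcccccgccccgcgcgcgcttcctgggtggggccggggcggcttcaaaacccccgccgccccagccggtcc
Tgfbi: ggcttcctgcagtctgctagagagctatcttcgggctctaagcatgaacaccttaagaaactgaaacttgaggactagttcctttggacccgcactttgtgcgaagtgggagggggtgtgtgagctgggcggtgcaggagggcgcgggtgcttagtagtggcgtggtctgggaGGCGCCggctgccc

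Upstream windows of 250 bases were found for 8 of the 10 members. They were searched on both strands for the SMAD-binding element CAGACA, the SMAD GC-rich box GGCGCC, the AP-1 site TGANTCA, the STAT site TTCNNNGAA and the NF-κB consensus. No match to any of them was found in the windows of Inhba, Smad6, Tgfbr2 and Smad3. Ski held the GC-rich box, and of 2 windows of Tgfbr1, 1 held the GC-rich box and the other CAGACA. Over 32851 promoter windows of the same length, CAGACA was present in 17.1%, GGCGCC in 9.59%, TGANTCA in 6.75%, TTCNNNGAA in 7.02% and the NF-κB consensus in 7.25%. A match is a description of these letters and not a bound site. Smad3 and Smad6 are neighbours on chromosome 9, on the minus strand, with 195.1 kb between them. No member shares exon bases with another annotated gene on either strand.

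Levels of different genes were compared as CPM per kilobase of exon. In DMEM, the highest mean level per kilobase was that of Tgfbr2, at 83.3, followed by Tgfb1 at 61.6 and Tgfbr1 at 30.2. Ski was at 22.7, Skil at 11.5, Tgfbi at 11.2 and Smad3 at 4.45 CPM per kilobase. Smad7 (0.754), Smad6 (0.153) and Inhba (0.116) were the lowest. In CM, Tgfb1 (114) and Tgfbi (104) led, Tgfbr2 stood at 44.7, Skil at 34.6 and Inhba at 16.1 CPM per kilobase, and Smad6 (2.74) was the lowest. Thus the receptor gene Tgfbr2 led in plain medium, and a ligand and a target gene led in tumor medium.

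**Figure D1:**
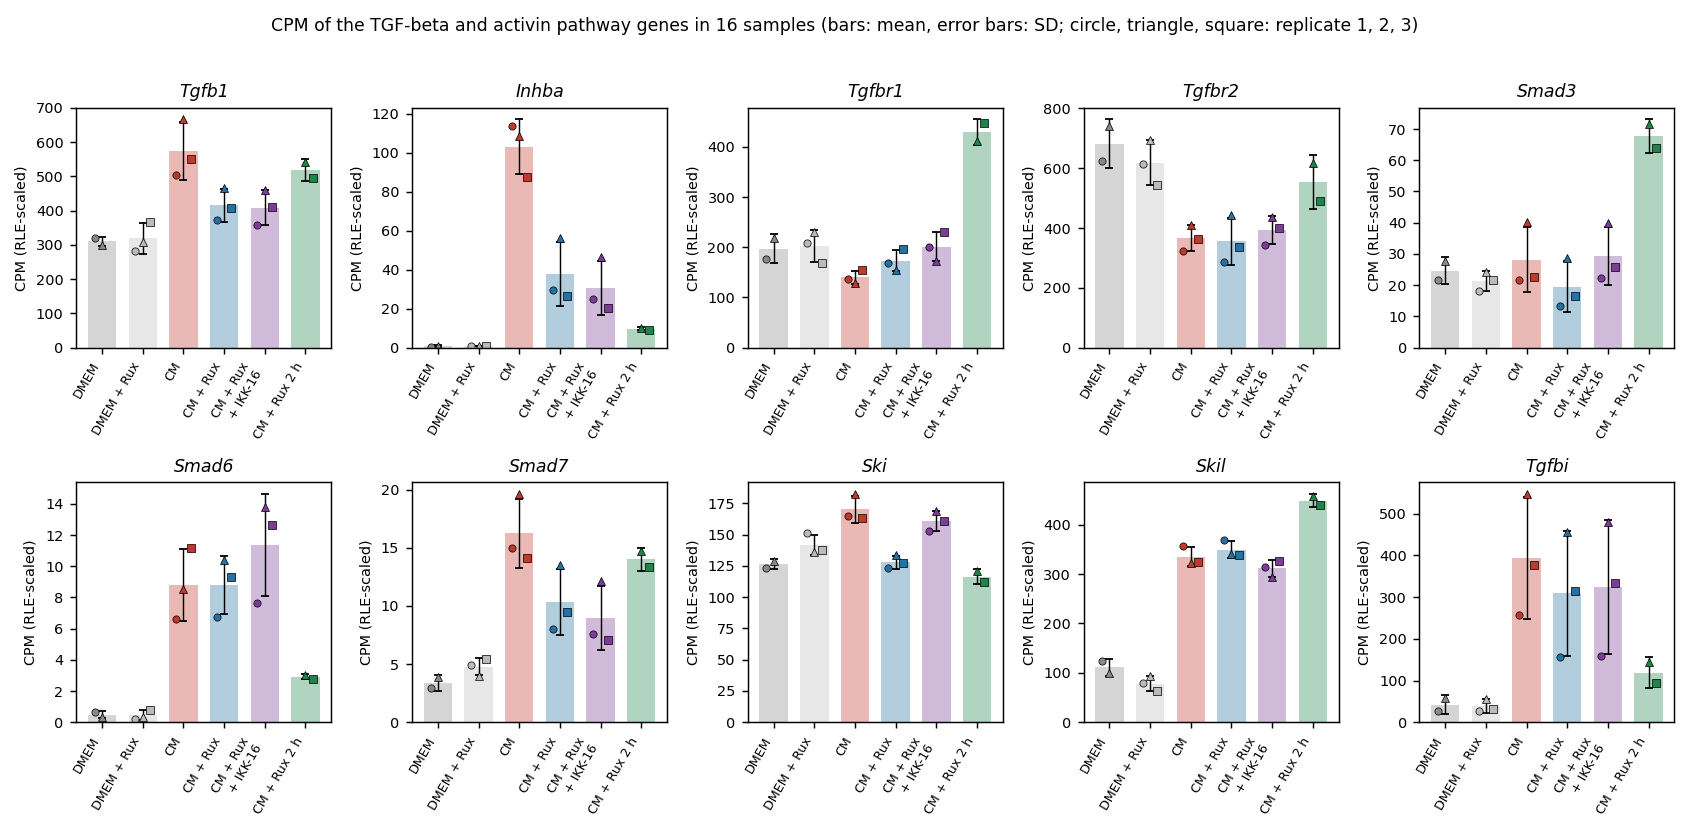
RLE-scaled CPM (y axes, linear, each with its own range) of the 10 genes in the 6 groups (x axes), with bars for the mean, error bars for the SD and a marker per sample by its replicate number. Inhba stands at 87.3 to 114 CPM in CM, 20.3 to 56.4 CPM in CM + Rux and CM + Rux + IKK-16 and below 1 CPM without CM, while Tgfbr1 and Smad3 are highest in CM + Rux 2 h.

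To see what tumor medium did, CM was compared with DMEM. The methods describe growing the tumor cells in RPMI, while the control is named after DMEM. The base medium of CM at collection is not stated. The groups may thus differ in base medium as well as in tumor-derived factors, and the part of each was not tested. This limit also holds for the later comparisons between samples with and without CM. Both ligand genes, both inhibitory SMADs, Skil and Tgfbi rose, and Tgfbr2 fell. A gene was called when the Benjamini-Hochberg adjusted p of edgeR's quasi-likelihood test was under 0.05 and the log2 fold change was beyond 0.5. Of the 10 members 6 were called higher and 1 lower, while 45.0% of all tested genes were called, 20.9% higher and 24.1% lower. Inhba and Smad6, counted among those higher, passed the filter through samples with CM, so their values here are a description. The median log2 fold change was 1.24 over the members and -0.005 over all tested genes. Samples of CM and DMEM did not overlap for 9 of the 10, which held for 74.8% of all tested genes. RLE scaling raised the log2 fold change of the median gene by 0.31 relative to total counts alone in this comparison.

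Inhba, which encodes the subunit of activin A, had the widest change. It was at 0.502 and 0.982 CPM in the DMEM samples and at 114, 109 and 87.3 CPM in CM. Every CM sample thus lay far above both DMEM samples, which held 17 and 24 fragments of it. The log2 fold change was 7.17 ± 0.52 (SE), or 144-fold, given as a description because Inhba passed the filter through samples with CM. Tgfb1, which encodes the ligand TGF-β1, was at 320 and 301 CPM in DMEM and at 505, 667 and 550 CPM in CM. The groups were apart, and Tgfb1 rose 1.85-fold, with a log2 fold change of 0.89 ± 0.15 and an adjusted p of 1.5e-04 (edgeR).

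Both receptor genes among the members had lower values in CM, though only Tgfbr2 was called. Tgfbr2, the type II receptor that binds TGF-β first, was at 624 and 740 CPM in DMEM and at 323, 411 and 364 CPM in CM. It fell by 0.90 ± 0.18 on the log2 scale, with an adjusted p of 5.2e-04 (edgeR). Tgfbr1, the type I receptor that phosphorylates SMAD2 and SMAD3, was at 177 and 218 CPM in DMEM and at 137, 128 and 155 CPM in CM. Its samples did not overlap either, yet the log2 fold change of -0.49 ± 0.15 (adjusted p = 0.0115, edgeR) lay just inside the threshold of 0.5. It passed that threshold with TMM scaling (-0.50), total counts alone (-0.80), the replicate block (-0.53) and only the groups compared with the block (-0.57). It also did so without CM replicate 3 (-0.57). Without DMEM replicate 1, which leaves a single DMEM sample, the log2 fold change was -0.64. Over the fits that left out a sample, Tgfbr1 ran from -0.64 to -0.33, so it was not always past the threshold.

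Smad3, which carries the signal of both TGF-β and activin receptors to the nucleus, had overlapping samples, at 21.5 and 27.8 CPM in DMEM and 21.6, 40.3 and 22.7 CPM in CM. Its log2 fold change was 0.21 ± 0.34 (adjusted p = 0.61, edgeR), and it turned to -0.12 with total counts alone and to -0.15 without CM replicate 2. A change of Smad3 in either direction was not detectable here.

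Both inhibitory SMADs were scarce in DMEM. Smad6, which acts mainly on BMP receptors, was at 0.650 and 0.327 CPM in DMEM and at 6.62, 8.53 and 11.2 CPM in CM. It rose by a log2 fold change of 4.11 ± 0.46, or 17.2-fold, likewise given as a description because of the filter. Smad7, which blocks the TGF-β and activin type I receptors, was at 2.93 and 3.89 CPM in DMEM and at 15.0, 19.6 and 14.1 CPM in CM. It rose 4.82-fold (log2 2.27 ± 0.29, adjusted p = 1.3e-05, edgeR), so for both genes the lowest CM sample lay well above the highest DMEM sample.

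Of the co-repressor genes, whose products bind SMAD complexes and repress their targets, Skil was called and Ski was not. Skil was at 123 and 99.0 CPM in DMEM and at 357, 323 and 325 CPM in CM, a rise of 1.59 ± 0.14 on the log2 scale (adjusted p = 5.0e-07, edgeR). Ski was at 123 and 129 CPM in DMEM and at 165, 182 and 163 CPM in CM. Its groups were apart and its log2 fold change was 0.43 ± 0.076 (adjusted p = 2.4e-04, edgeR), under the threshold of 0.5, and 0.12 with total counts alone. Tgfbi, a secreted matrix protein named for its induction by TGF-β, was at 26.3 and 58.4 CPM in DMEM and at 257, 547 and 377 CPM in CM. It rose 9.34-fold (log2 3.22 ± 0.60, adjusted p = 3.7e-04, edgeR), with samples that varied more than 2-fold within each group.

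With ruxolitinib on both sides, CM + Rux was compared with DMEM + Rux, which shares no sample with the comparison above. Both came from 1 model, and deviations from group means of same-numbered CM and CM + Rux samples correlated at 0.43 to 0.62. The comparisons are therefore not independent. Inhba, Smad6, Smad7, Skil and Tgfbi rose and Tgfbr2 fell, while Tgfb1 was not called. Thus 5 members were called higher and 1 lower, against 47.3% of all tested genes, 22.3% higher and 25.0% lower, and samples were apart for 8 of the 10, against 70.0% of all tested genes. The values of Inhba and Smad6, counted among those higher, are again a description because of the filter. Scaling raised the median gene by 0.30 here. Inhba was at 0.831, 0.670 and 0.583 CPM in DMEM + Rux and at 29.6, 56.4 and 26.6 CPM in CM + Rux, which gave 5.78 ± 0.43 on the log2 scale. Every CM + Rux sample was above every DMEM + Rux sample. The log2 fold changes of the others were 4.24 ± 0.39 for Smad6, 2.99 ± 0.50 for Tgfbi, 2.16 ± 0.12 for Skil, 1.12 ± 0.24 for Smad7 and -0.80 ± 0.16 for Tgfbr2. Tgfb1 was at 281, 308 and 368 CPM in DMEM + Rux and at 371, 467 and 407 CPM in CM + Rux. Its groups were only just apart, and the log2 fold change of 0.38 ± 0.13 (adjusted p = 0.0189, edgeR) was below the threshold. Tgfbr1 had a log2 fold change of -0.23 ± 0.14 (adjusted p = 0.157, edgeR), which became -0.53 and was called with total counts alone.

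**Figure D2:**
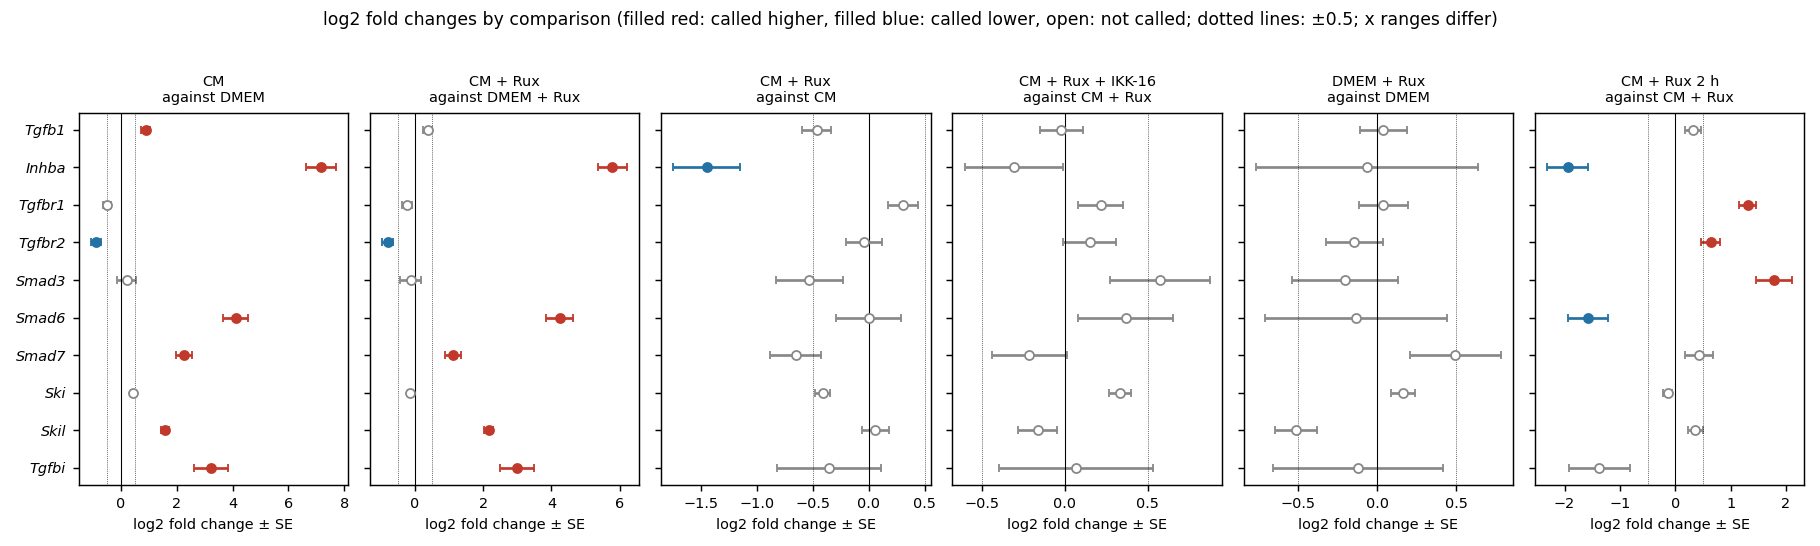
Log2 fold change ± SE (x axes, ranges differ between panels) of the 10 genes (y axis) in 6 comparisons, filled where called and open where not. In CM against DMEM 7 genes are filled, in CM + Rux against CM only Inhba is, and in CM + Rux + IKK-16 against CM + Rux and in DMEM + Rux against DMEM none is.

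To see what JAK inhibition did in tumor medium, CM + Rux was compared with CM. Inhba fell and was the only member called, 1 of 10, against 3.33% of all tested genes, 1.20% higher and 2.13% lower. The median log2 fold change of the members was -0.38, and that of all tested genes 0.0071. Samples were apart for Inhba, Ski, Tgfb1 and Smad7, 4 of the 10, against 19.2% of all tested genes. Inhba went from 114, 109 and 87.3 CPM in CM to 29.6, 56.4 and 26.6 CPM in CM + Rux. The log2 fold change was -1.45 ± 0.30, or 2.73-fold lower (adjusted p = 0.0111, edgeR), and each same-numbered pair moved down. It was no longer called without CM + Rux replicate 1 (log2 -1.30, adjusted p = 0.070) or replicate 3 (log2 -1.26, adjusted p = 0.056). Levels in CM + Rux stayed far above those without CM, where Inhba was below 1 CPM.

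Among the other members, Ski was at 165, 182 and 163 CPM in CM and at 123, 133 and 127 CPM in CM + Rux. The groups were apart, and the log2 fold change of -0.41 ± 0.067 (adjusted p = 0.0025, edgeR) passed the test but not the fold threshold. Tgfb1 was at 505, 667 and 550 CPM in CM and 371, 467 and 407 CPM in CM + Rux, which gave -0.47 ± 0.13 on the log2 scale (adjusted p = 0.059, edgeR). Without CM + Rux replicate 2 it was called, at -0.56 with an adjusted p of 0.039, while all fits with a sample left out ran from -0.56 to -0.34.

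Smad7 was at 15.0, 19.6 and 14.1 CPM in CM and at 8.01, 13.5 and 9.52 CPM in CM + Rux, with a log2 fold change of -0.65 ± 0.23 (adjusted p = 0.14, edgeR). Smad3 was at 21.6, 40.3 and 22.7 CPM in CM and at 13.2, 28.8 and 16.6 CPM in CM + Rux, with -0.53 ± 0.30 (adjusted p = 0.46, edgeR). In both genes the sample numbered 2 was the highest of its group, and each same-numbered pair was lower with ruxolitinib. With the replicate number as a block, both were called, Smad7 at -0.66 ± 0.17 (adjusted p = 0.021) and Smad3 at -0.54 ± 0.14 (adjusted p = 0.025), so that 3 members were called lower. Smad7 was also called without CM + Rux replicate 2, at -0.90 (adjusted p = 0.044), while all fits with a sample left out ran from -0.90 to -0.49. Tgfbi, Tgfbr1, Tgfbr2, Smad6 and Skil had overlapping samples, with log2 fold changes of -0.35 ± 0.47 for Tgfbi, 0.31 ± 0.14 for Tgfbr1 and between -0.043 and 0.059 for the rest.

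The effect of adding IKK-16 was read from CM + Rux + IKK-16 against CM + Rux, which shares the CM + Rux samples with the comparison above. No member was called by edgeR, against 7.74% of all tested genes, 4.07% higher and 3.66% lower. At an unadjusted p under 0.05, 1 member passed, and DESeq2 called 0. Samples were apart for Ski and Skil, 2 of the 10, against 31.5% of all tested genes. Ski was at 123, 133 and 127 CPM in CM + Rux and at 153, 169 and 161 CPM with IKK-16 added, a log2 fold change of 0.33 ± 0.067 (adjusted p = 0.0055, edgeR) that was below the fold threshold. Every sample with IKK-16 exceeded every sample without it, and the levels with IKK-16 overlapped those of CM alone. Skil was at 368, 340 and 339 CPM and at 314, 293 and 327 CPM, with a log2 fold change of -0.16 ± 0.12 (adjusted p = 0.40, edgeR).

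Smad3 was at 13.2, 28.8 and 16.6 CPM in CM + Rux and at 22.1, 39.9 and 25.8 CPM with IKK-16. Each same-numbered pair was higher with IKK-16 although the groups overlapped, and the log2 fold change was 0.57 ± 0.30 (adjusted p = 0.23, edgeR). With the replicate block Smad3 was called, at 0.60 ± 0.14 (adjusted p = 0.0069), and it was also called without CM + Rux replicate 2, at 0.98 (adjusted p = 0.049). Its fits with a sample left out ran from 0.29 to 0.98. Inhba was at 29.6, 56.4 and 26.6 CPM and at 24.7, 46.5 and 20.3 CPM with IKK-16, a log2 fold change of -0.31 ± 0.30 (adjusted p = 0.53, edgeR). Each pair was lower, by less than the spread within either group. The other members had log2 fold changes between -0.21 for Smad7 and 0.37 for Smad6.

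**Figure D3:**
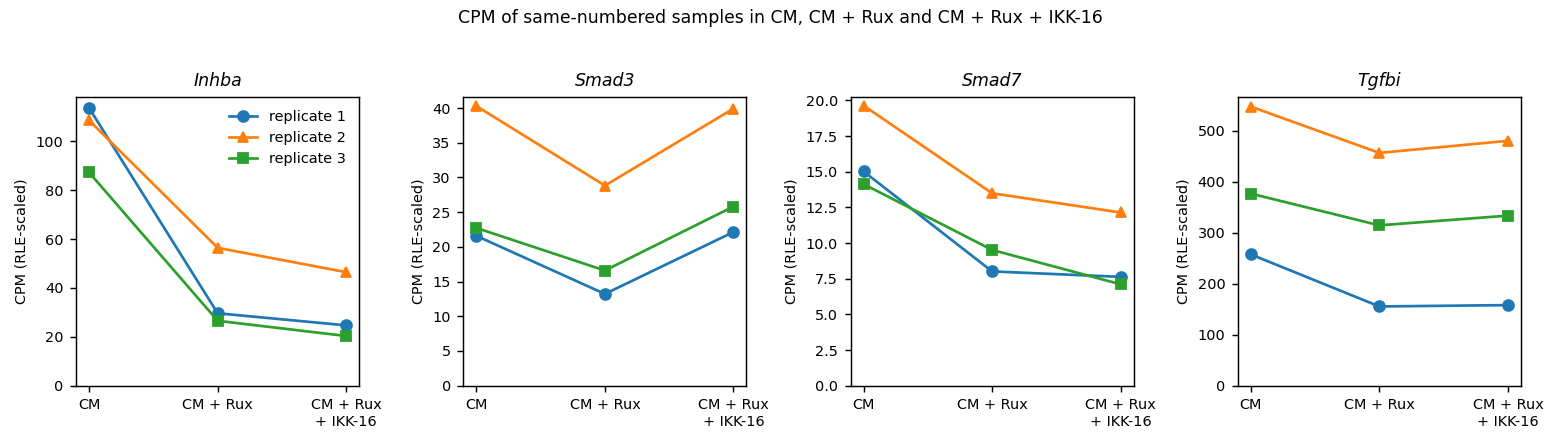
RLE-scaled CPM (y axes, from 0) of Inhba, Smad3, Smad7 and Tgfbi in CM, CM + Rux and CM + Rux + IKK-16 (x axes), with a line for each replicate number. Replicate 2 lies highest throughout for Smad3, Smad7 and Tgfbi, and all 3 lines of each gene go down from CM to CM + Rux.

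Same-numbered samples stayed together in other members as well. Replicate 2 was the highest sample of all 6 groups for Tgfbr2, Smad3 and Tgfbi, which held for 684 of the 12372 tested genes (5.53%). For Tgfbi the samples numbered 1, 2 and 3 were at 257, 547 and 377 CPM in CM, at 155, 457 and 314 CPM in CM + Rux and at 158, 480 and 333 CPM with IKK-16. The spread of Tgfbi within a group was thus larger than any of its differences between these 3 groups. What the number stands for is not stated.

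Without tumor medium, ruxolitinib was compared in DMEM + Rux against DMEM, where DMEM had only 2 samples. No member was called by edgeR, against 0% of all tested genes called higher and 0.970% called lower. At an unadjusted p under 0.05, 2 members passed, 1 of them also past the fold threshold, and DESeq2 called 1. That gene was Skil, at 123 and 99.0 CPM in DMEM and at 79.4, 92.6 and 62.3 CPM in DMEM + Rux, with a log2 fold change of -0.51 ± 0.13 (adjusted p = 0.14 by edgeR and 0.028 by DESeq2). Its samples were apart, as were those of Ski and Smad7, 3 of the 10, against 18.5% of all tested genes. Without DMEM + Rux replicate 2, Skil was called by edgeR, at -0.65 with an adjusted p of 0.025, while all fits with a sample left out ran from -0.66 to -0.34. Inhba, at under 1 CPM in both groups, had a log2 fold change of -0.063 ± 0.70.

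How far ruxolitinib acted differently in the media, its effect in CM minus that in DMEM, was tested as an interaction. Ski alone was called, 1 of 10, against 0.412% of all tested genes, 0.234% higher and 0.178% lower. Ski was at 123 and 129 CPM in DMEM, 151, 136 and 137 CPM in DMEM + Rux, 165, 182 and 163 CPM in CM and 123, 133 and 127 CPM in CM + Rux. Ski was lower with ruxolitinib in CM, in samples that did not overlap. In DMEM its samples with ruxolitinib lay above those without, but the change was not called (adjusted p = 0.96, edgeR). The log2 fold changes of 0.16 ± 0.076 in DMEM and -0.41 ± 0.067 in CM differed by -0.57 (adjusted p = 0.0274, edgeR). The call was lost when CM replicate 1 (adjusted p = 0.064), CM replicate 2 (0.053), CM + Rux replicate 1 (0.078), CM + Rux replicate 3 (0.058), DMEM replicate 1 (0.15) or DMEM + Rux replicate 1 (0.059) was left out, at differences of -0.52 to -0.60. Smad7 had a larger difference of -1.15 ± 0.37 that was not called (adjusted p = 0.23, edgeR), and with the replicate block it was called as well (-1.19, adjusted p = 0.036). For Inhba the effects of -1.45 in CM and -0.063 in DMEM differed with an adjusted p of 0.67 (edgeR), at the low level of Inhba in DMEM.

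Samples titled 2 h were compared with those titled 4 h in CM + Rux, with 2 samples at 2 h. Smad3 and both receptor genes were higher at 2 h, and Inhba and Smad6 were lower. These are 3 members called higher and 2 lower, against 23.3% of all tested genes, 12.6% higher and 10.7% lower, with samples apart for 9 of the 10, against 59.6% of all tested genes. Smad3 was at 71.5 and 63.8 CPM at 2 h and at 13.2, 28.8 and 16.6 CPM at 4 h, a log2 fold change of 1.78 ± 0.33 (adjusted p = 8.3e-04, edgeR). Both 2 h samples also exceeded every other sample of the study in Smad3. Tgfbr1 was at 411 and 448 CPM at 2 h and at 169, 154 and 197 CPM at 4 h, with a log2 fold change of 1.31 ± 0.15 (adjusted p = 2.3e-05, edgeR). Its 2 h samples were likewise the highest of the study, since no other sample exceeded 231 CPM. Tgfbr2 was at 618 and 490 CPM at 2 h and at 287, 442 and 337 CPM at 4 h, with 0.64 ± 0.18 (adjusted p = 0.0108, edgeR), and its call was lost without CM + Rux 2 h replicate 2 (log2 0.46, adjusted p = 0.13).

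Inhba was at 10.3 and 9.23 CPM at 2 h and at 29.6, 56.4 and 26.6 CPM at 4 h, lower at 2 h by a log2 fold change of -1.94 ± 0.37 (adjusted p = 0.0011, edgeR). Smad6 was at 3.04 and 2.80 CPM at 2 h and at 6.74, 10.4 and 9.31 CPM at 4 h, with -1.58 ± 0.36 (adjusted p = 0.0036, edgeR). Both genes at 2 h lay between the samples without CM and those at 4 h. Tgfbi, at 145 and 93.0 CPM at 2 h and 155, 457 and 314 CPM at 4 h, had a log2 fold change of -1.37 ± 0.55 (adjusted p = 0.062, edgeR) and was not called. It was called with the replicate block in all groups (-1.62, adjusted p = 9.4e-07, edgeR) and in only the groups compared (-1.70). Tgfbi was also called with total counts alone, with no low-count filter, by DESeq2 (adjusted p = 0.048) and without CM + Rux replicate 1 (-1.69, adjusted p = 0.028, edgeR). Its fits with a sample left out ran from -1.74 to -0.98. Skil, at 458 and 439 CPM against 368, 340 and 339 CPM, had 0.36 ± 0.13 (adjusted p = 0.043, edgeR), under the fold threshold. The dendritic cell markers, led by Zbtb46, summed to 7.98 to 12.3 CPM at 2 h and to at most 2.09 CPM in every other sample, with Flt3 and Xcr1 at or below 0.167 CPM throughout. Their part in these differences was not tested.

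In the order of the 6 groups, members did not follow 1 pattern. Inhba descended from CM through CM + Rux, CM + Rux + IKK-16 and CM + Rux 2 h to DMEM and DMEM + Rux, where CM + Rux overlapped CM + Rux + IKK-16 and DMEM overlapped DMEM + Rux. Tgfb1 was highest in CM, whose samples overlapped those of CM + Rux 2 h, and lowest in DMEM. Smad7 had the same top and bottom groups as Tgfb1, with neighbours overlapping down to CM + Rux + IKK-16. Tgfbi and Smad6 were highest in CM, CM + Rux and CM + Rux + IKK-16, which overlapped one another, and intermediate in CM + Rux 2 h. Skil, Smad3 and Tgfbr1 were highest in CM + Rux 2 h, apart from the next group. Tgfbr2 was highest in DMEM, which overlapped DMEM + Rux. Ski was highest in CM, which overlapped CM + Rux + IKK-16, and lowest in CM + Rux 2 h.

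Genes with the most alike group means were found by Pearson's r over the 6 group means of log2(CPM + 0.5), as a description in which points share libraries and most of the variation is between media and times. For Inhba these were Gpr171 (r = 0.999) and Tiparp (0.999), and for Tgfb1 Plekhf1 (0.996) and Grina (0.994). Gpr171 was at 0.515 CPM on average in DMEM, 11.7 CPM in CM and 7.36 CPM in CM + Rux. Smad6 was nearest to Kif1c (0.998) and Golt1b (0.998), Smad7 to Iqcb1 (0.993) and Adgra2 (0.992), and Tgfbi to Ppid (0.999) and Dcaf1 (0.998). Skil was nearest to the chemokine gene Cxcl16 and to Sbno1, each at 0.999 or above, and Ski to Gart (0.983) and Gm13563 (0.975). Tgfbr1 was nearest to the transcription factor gene Klf6 (0.998) and Lpcat1 (0.992), Tgfbr2 to Ids (0.998) and 2210408I21Rik (0.998), and Smad3 to Trim25 (0.972) and Cass4 (0.970).

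The rest of the pathway was read from a list of 72 other genes of TGF-β, activin and BMP signalling, of which 52 were tested. This list too was chosen with earlier results of these data known, so its counts are a description. In CM against DMEM 22 of these were higher and 4 lower by both thresholds, and 18 and 8 with total counts alone. Their median log2 fold change was 0.48, beside the background of 20.9% and 24.1% given above. Of the genes listed under latent TGF-β storage and activation 8 of 10 tested were called higher, with a median of 3.08. Of the target genes 7 of 9 were called higher and 1 lower. Of the receptor-regulated and common SMADs none of 4 was called by edgeR. Thbs1, the matrix protein thrombospondin that can activate latent TGF-β, was at 23.5 and 29.5 CPM in DMEM and at 3139, 5232 and 3463 CPM in CM (log2 7.22 ± 0.52). Id1, a target of BMP signalling, was at 0.236 and 0 CPM in DMEM and at 1.95, 2.73 and 1.75 CPM in CM (log2 3.97 ± 0.56). Both lay in CM above every DMEM sample. Id1 exceeded 1 CPM in CM alone, so it passed the filter through the group where it was high, and its values are a description. With Ccn2 and Timp3 it was 1 of 3 tested list genes above 1 CPM in no sample without CM, of which 2 are among the genes counted as higher. The size for Id1 rested on the DMEM samples, being 3.17 without DMEM replicate 2 and, without DMEM replicate 1, set against a single sample at 0.

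Pmepa1, a feedback inhibitor that binds receptor-regulated SMADs, rose by 5.72 ± 0.27 on the log2 scale in CM, and Acvrl1, a type I receptor, by 2.1 ± 0.30. The activin receptor gene Acvr1b rose by 1.77 ± 0.091 (adjusted p = 4.3e-09, edgeR). Of 9 receptor and co-receptor genes tested in the list, 2 were called higher and 1 lower. Among genes called lower was Bmp2, a BMP ligand (-4.49 ± 0.40). It was below 1 CPM in every sample of CM, CM + Rux and CM + Rux + IKK-16. Bmp2 thus passed the filter through groups where it was higher, and its values are a description. Also called lower were Acvr2b, an activin type II receptor (-1.04 ± 0.35), and Cdkn2b, a cell cycle inhibitor induced by TGF-β in epithelial cells (-1.32 ± 0.47). The calls of Acvr2b and Cdkn2b rested on single libraries, each being lost in 3 of the 5 fits that left out a sample. Acvr2b was not called without CM replicate 2 or either DMEM replicate, and Cdkn2b not without CM replicate 1, CM replicate 3 or DMEM replicate 1, the last of which gave -0.36. In CM + Rux against DMEM + Rux, 21 of 52 list genes were called higher and 6 lower, against 22.3% and 25.0% of all tested genes. Of Ccn2, Id1 and Timp3, above 1 CPM in no sample without CM, 2 are counted as higher. Bmp2, counted as lower, was below 1 CPM in every CM + Rux sample. The values of these genes are a description. Among those higher were Thbs1 (7.28), Pmepa1 (5.31), Itgb8 (5.30), Id3 (5.29), Mmp14 (5.26) and Lrrc32 (4.17) on the log2 scale.

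**Figure D4:**
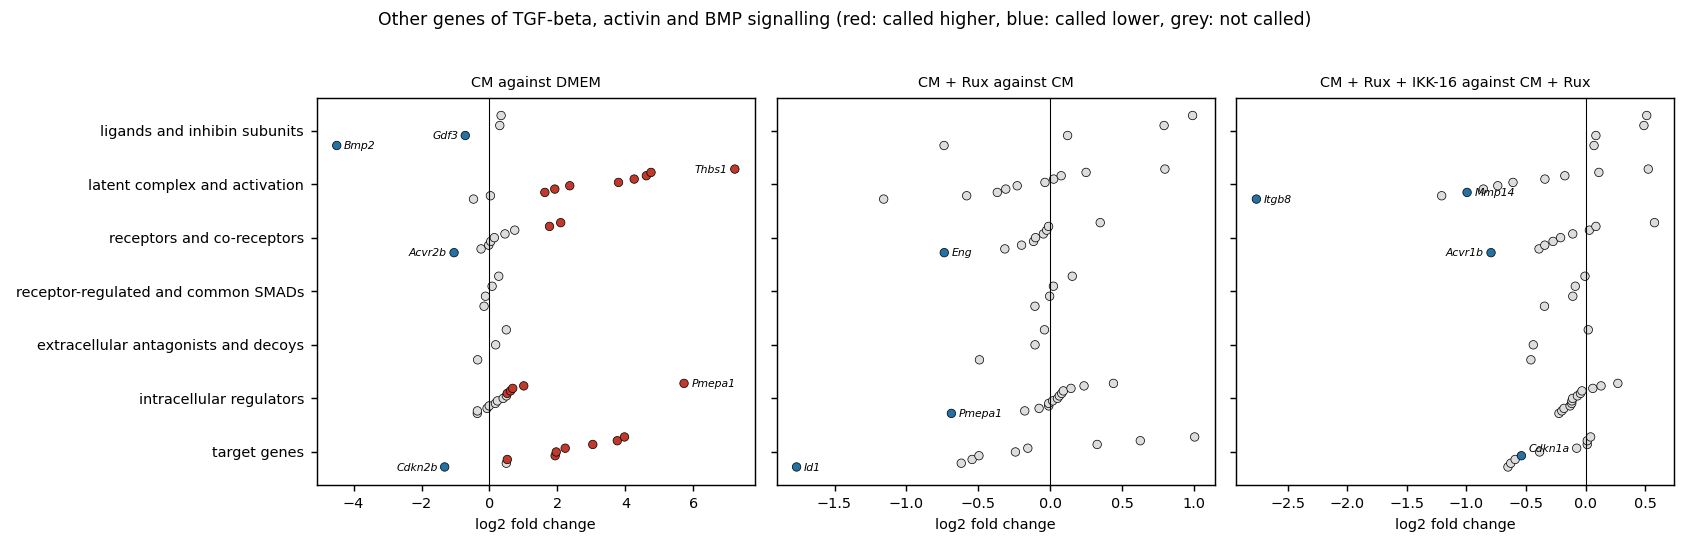
Log2 fold change (x axes, ranges differ) of the 52 tested genes of the pathway list, in rows by role (y axis), for CM against DMEM, CM + Rux against CM and CM + Rux + IKK-16 against CM + Rux. In CM 22 points are red (called higher) and 4 blue (called lower), with ruxolitinib 3 are blue, and with IKK-16 added 4 are blue.

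In CM + Rux against CM, 3 of 52 list genes were called lower and 0 higher, against 2.13% and 1.20% of all tested genes. One of them, Id1, had passed the filter only through the CM samples of this comparison and is given as a description, from 1.95, 2.73 and 1.75 CPM to 0.620, 0.630 and 0.662 CPM (log2 -1.76). Eng, the co-receptor endoglin, went from 55.0, 77.0 and 61.8 CPM to 36.1, 43.8 and 36.4 CPM (log2 -0.74 ± 0.12, adjusted p = 0.0026, edgeR). Both were apart in all samples. Pmepa1 was lower by a log2 fold change of -0.69 ± 0.17 (adjusted p = 0.037, edgeR). Its call was lost without CM replicate 1, CM replicate 2, CM + Rux replicate 1 or CM + Rux replicate 3 (adjusted p up to 0.16). The list count was 1 without CM replicate 2 or CM + Rux replicate 1, 5 without CM + Rux replicate 2 and 5 with the replicate block.

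With IKK-16 added, 4 of 52 list genes were called lower and 0 higher, against 3.66% and 4.07% of all tested genes, and the median over the list was -0.12. Itgb8, the integrin chain that activates latent TGF-β, was at 47.7, 33.9 and 42.7 CPM in CM + Rux and at 5.59, 5.54 and 7.20 CPM with IKK-16 (log2 -2.76 ± 0.23, adjusted p = 1.3e-05, edgeR). Acvr1b, the type I receptor of activin, went from 157, 159 and 155 CPM to 84.7, 91.1 and 96 CPM (log2 -0.79 ± 0.076, adjusted p = 4.4e-05, edgeR). In both, the samples of the groups were far apart, and each call was kept in every fit that left out a sample.

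Mmp14, a membrane metalloproteinase named after its values were seen, had a log2 fold change of -0.99 ± 0.27 with IKK-16, and Cdkn1a, a cell cycle inhibitor, of -0.54 ± 0.17. The calls of both were lost in some fits with a sample left out. Mmp14 was not called without CM + Rux replicate 3 or IKK-16 replicate 1 or 2 (adjusted p up to 0.10), and Cdkn1a was called in only 1 of 6 such fits. The list count was 2 without CM + Rux replicate 3 or IKK-16 replicate 1, 7 without IKK-16 replicate 2 and 9 with the replicate block.

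No list gene was called by edgeR in DMEM + Rux against DMEM or in the interaction, where 1 and 8 passed an unadjusted p under 0.05 and DESeq2 called 0 in both. In CM + Rux 2 h against CM + Rux, 3 of 52 list genes were called higher and 7 lower, against 12.6% and 10.7% of all tested genes. Bmp2 had the largest change, higher by 2.76 ± 0.38 at 2 h. It was below 1 CPM in every sample titled 4 h and passed the filter through groups where it was higher, so its values are a description. Next in size were Itgb8 (-2.64 ± 0.27), Thbs1 (-2.56 ± 0.41), Acvrl1 (-1.57 ± 0.29), Ltbp2 (-1.45 ± 0.41) and Mmp14 (-1.10 ± 0.31), lower at 2 h. Ltbp2, listed under latent TGF-β storage and activation, was not called without either 2 h sample, and Mmp14 not without CM + Rux 2 h replicate 2.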

How the data were processed

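RNA of 16 samples in 6 groups was analysed, grouped by their titles. Per the labels and the study's methods, reads were trimmed with Trimmomatic 0.33, aligned to GRCm38 with HISAT2 2.1.0 and counted per gene with featureCounts 1.6.2 on Ensembl release 100. The deposited values are raw counts, unscaled, and every column was used. The authors' table gave no symbols; 55141 of 55487 identifiers took one from GENCODE M21 (GRCm38), and the others held at most 0.0459% of a sample's counts. Totals were 18449388 to 46215853.

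The 12372 genes with a CPM over 1 in 2 or more samples were normalised by RLE (relative log expression), and edgeR 4.0.16 gave quasi-likelihood tests (limma 3.58.1, R 4.3.3) in 1 model of all groups without a block. The filter, scaling and thresholds (log2 fold change beyond 0.5, adjusted p under 0.05 by Benjamini-Hochberg over all tested genes) follow the study's methods, whose statistics section names another test. SE was the log2 fold change over the root of F. CPM uses RLE-scaled totals, except in the filter, which used total counts. The fit was tested on simulated data. Tables and plots used Python 3.11.15, pandas 2.3.3, numpy 2.4.6 and matplotlib 3.10.9.

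Members and lists were chosen with earlier results of these data known. The rule named every member and, from the pathway list, the gene called with the largest rise and fall per role in CM against DMEM and with IKK-16, and up to 6 called genes by size elsewhere, plus the 2 genes most like each member with a mean of at least 1 CPM. A further gene of the pathway list is not reported here and is left out of its counts. Replicate numbers come from the titles. Deviations from group means of same-numbered samples correlated at 0.17 to 0.63 between the 4 groups of 3 samples, so a blocked fit is given where it changes a call. Replicates differed by 13.2 to 50.3 in chi-square per degree of freedom, so none was a copy. Alternatives were TMM, total counts, other filters, the block, DESeq2 1.42.0, only the groups compared, other thresholds and each sample left out. For pathway list genes these were added after the data were seen.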

Additional observations from a re-analysis of the deposited data

Results flagged for a closer look

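The effect of ruxolitinib on Ski differed between tumor medium and plain medium by -0.57 on the log2 scale (in CM minus in DMEM), with an adjusted p of 0.0274 in edgeR's test of the interaction. With ruxolitinib, Ski was lower in 3 of 3 same-numbered pairs in CM and higher in 2 of 2 in DMEM, and DMEM rested on 2 samples. The pairs in DMEM differed by 0.29 and 0.079 on the log2 scale. Neither effect was called alone, that in DMEM with an adjusted p of 0.96 (edgeR). The call was lost in 6 of the 11 fits that left out a sample and in the fit of only the groups compared (adjusted p = 0.060).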

How the results depend on the processing

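Of 313 values of the 20 called member results under the alternatives, 303 kept direction and call, 10 lost the call and 0 turned. Those lost belonged to Inhba in CM + Rux against CM, Ski in the interaction and Tgfbr2 at 2 h. Of 827 values of the 50 results not called, 35 passed the thresholds and 42 changed sign. Of 1084 values of the 70 calls of pathway list genes, 52 lost the call. With total counts alone, Smad3 in CM against DMEM was at -0.12, Smad6 in CM + Rux against CM at 0.016 and Tgfb1 with IKK-16 at 0.065 on the log2 scale; DESeq2 gave 0.0021 for that Smad6 value. The cause of these changes was not tested.

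With the replicate block, 3 members were called in CM + Rux against CM, 1 with IKK-16 and 2 in the interaction (Ski and Smad7), and 5, 9 and 3 pathway list genes; Smad6 in CM + Rux against CM was at 0.027. In pairs of groups that share 2 numbers, the block gave calls for Tgfbr1 in CM against DMEM (-0.53) and for Tgfbi at 2 h (-1.62). With only the groups compared and the block, 3 members and 10 list genes were called in CM + Rux against CM, 1 and 12 with IKK-16 and 3 list genes in the interaction. Smad6 in CM + Rux against CM was then at 0.035 and Tgfb1 in DMEM + Rux against DMEM at -0.076. The block changed no other call of a member.

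Without the block, only the groups compared gave 0 members in the interaction. No low-count filter gave 2, 1 and 2 members in CM + Rux against CM, DMEM + Rux against DMEM and the interaction, and 5 list genes in the first, 11 with IKK-16 and 1 in the interaction. DESeq2 gave 1 member in DMEM + Rux against DMEM, with 5 list genes in CM + Rux against CM and 7 with IKK-16, as did an adjusted p under 0.1 for both list counts. Total counts alone gave 5 list genes in CM + Rux against CM. No fold change threshold gave 2 members in CM + Rux against CM and 1 with IKK-16. Over all genes, 412 were called in CM + Rux against CM and 745 with the block, and in the interaction 51 and 444.

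Leaving out each sample in turn gave 0 to 3 members in CM + Rux against CM and 0 to 1 with IKK-16, in DMEM + Rux against DMEM and in the interaction; the list counts were 1 to 5, 2 to 7, 0 to 1 and 0 to 1. Log2 fold changes that turned ran from -0.15 to 0.40 for Smad3 in CM against DMEM and from -0.53 to 0.10 in CM + Rux against DMEM + Rux. In CM + Rux against CM they ran from -0.23 to 0.091 for Tgfbr2 and from -0.16 to 0.21 for Smad6. With IKK-16 the ranges were -0.33 to 0.46 (Tgfbi), -0.11 to 0.069 (Tgfb1), -0.75 to 0.11 (Inhba) and -0.49 to 0.034 (Smad7). In DMEM + Rux against DMEM they were -0.11 to 0.20 (Tgfbr1), -0.77 to 0.49 (Smad6), -0.075 to 0.12 (Tgfb1), -0.53 to 0.44 (Inhba) and -0.59 to 0.56 (Tgfbi), and in the interaction -0.49 to 0.77 (Smad6), -0.74 to 0.029 (Smad3), -0.92 to 0.24 (Tgfbi) and -0.087 to 0.23 (Tgfbr2). Depth limits the low genes: Smad6 had 4 to 25 fragments per sample without CM.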
